A study of Homo sapiens with 4 samples.

Results

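To address how the genes that build ribosomes respond to loss of CEBPG, 46 genes of nucleolar ribosome biogenesis factors were taken by symbol from an RNA-seq table of 16504 gene symbols. All 46 were listed, and all 46 entered the test. CEBPG belongs to the CCAAT enhancer binding proteins, a family of leucine-zipper transcription factors. The table holds 4 RNA-seq libraries labelled NB4, the name of a cell line from a human acute promyelocytic leukemia. In 2 control libraries CEBPG was present, and in 2 libraries CEBPG was knocked down. The knockdown used an shRNA (a short hairpin RNA that directs destruction of its target mRNA) delivered by a puromycin-selected lentiviral vector. The knockdown label carries a 3, which was read as the shRNA number, so that group would hold a single shRNA and an effect of CEBPG cannot be told apart from an effect of that hairpin. The study describes the controls as shRNA control cells without naming a control hairpin, and its CEBPG hairpins were cloned into pLKO.1-puro.

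Ribosomes are assembled in the nucleolus. RNA polymerase I transcribes a long precursor rRNA, small nucleolar ribonucleoproteins (snoRNPs) modify it, and the small-subunit processome and the large-subunit assembly factors fold and cleave it into the precursors of the 40S and 60S subunits. Genes for these proteins are expressed in most dividing cells, and many are known targets of the transcription factor MYC.

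Levels are in FPKM, the number of fragments per kilobase of exon, scaled to what was mapped in the library and summed over the transcripts of a gene. Columns summed to 346170 to 367105 FPKM, at least 1 FPKM was reached by 10875 to 10964 genes per library, and read depth was unknown. CEBPG itself measured 17.1 and 18.1 FPKM in control, and 6.91 and 7.96 FPKM after knockdown, 42.2% of control. The markers went against the label. Of 8 promyelocytic granule genes listed, 5 or 6 were under 1 FPKM in each library, and of 11 myeloid surface and regulator genes 8 were under 1 FPKM. The granule genes MPO, ELANE, CTSG and RNASE2 were not analysed here, so this check rests on the other granule genes. Among 20 erythroid markers, 18 exceeded 10 FPKM in each library, with summed levels of 8884 and 8404 FPKM in control and 9852 and 9295 FPKM in knockdown libraries. In the test described below, 4 of 19 erythroid genes (21.1%) were called lower, with HBZ at -0.83, and 3 (15.8%) higher. Over all tested genes these shares were 9.99% and 10.9%, and the erythroid median was -0.03. All 3 higher calls were lost without either knockdown library, while HBZ was called with each library left out. Because the markers went against the label, the libraries are called by their groups below. Summed granule genes ranged from 28.2 to 31.3 FPKM over the 4 libraries. Of the 2 granule genes tested, LYZ was lower at -0.30 and CFD higher at 0.39, and both lost the call without either knockdown library. Summed myeloid genes were 42.2 and 43.1 FPKM in control and 76.2 and 72.1 FPKM in knockdown libraries, with CD68 higher by 1.18 on the log2 scale. The part of these markers in the results below was not tested.

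Most of the 46 genes changed little in the knockdown, and 8 passed the test, all of them lower. UTP14A, a component of the small-subunit processome, fell to 55.3% of control, and GAR1, a core protein of the box H/ACA snoRNPs, fell to 63.0%. A further 6 genes fell by less, among them RRP12 to 76.5%, DKC1 to 78.2% and BOP1 to 83.4% of control. None of the 46 passed the test in the higher direction. NPM1, the most abundant member, was not called.

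The changes were tested with limma on log2(FPKM + 1) over 10968 genes that averaged 1 FPKM or more, and a gene was called at a Benjamini-Hochberg adjusted p under 0.05. Of the 46 genes, 8 (17.4%) were called lower, against 9.99% of all tested genes, and 0 were called higher, against 10.9%. At an unadjusted p under 0.05 there were 16 lower and 3 higher members, against 17.4% and 19.6% of all tested genes. The median log2 fold change was -0.12 over the members and 0.02 over all tested genes, with a range of -0.82 to 0.17 over the members. The log2 fold change was below 0 for 34 members and above 0 for 12, against 47.3% of tested genes below 0. The knockdown libraries were both below the 2 control libraries for 29 members (30.5% of all tested genes did so) and above them for 7 (34.3% of all tested genes), and the groups overlapped for 10. Leaving out knockdown library 1 or knockdown library 2 left UTP14A and GAR1 as the 2 members called, which is 4.35% of the members and close to the 3.79% and 4.01% of all tested genes called lower in those fits. Leaving out control library 1 or 2 left 7 and 9 members (15.2% and 19.6%), against 6.53% and 8.63% of all tested genes. Without control library 1 the median over the members was -0.08.

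**Figure D1:**
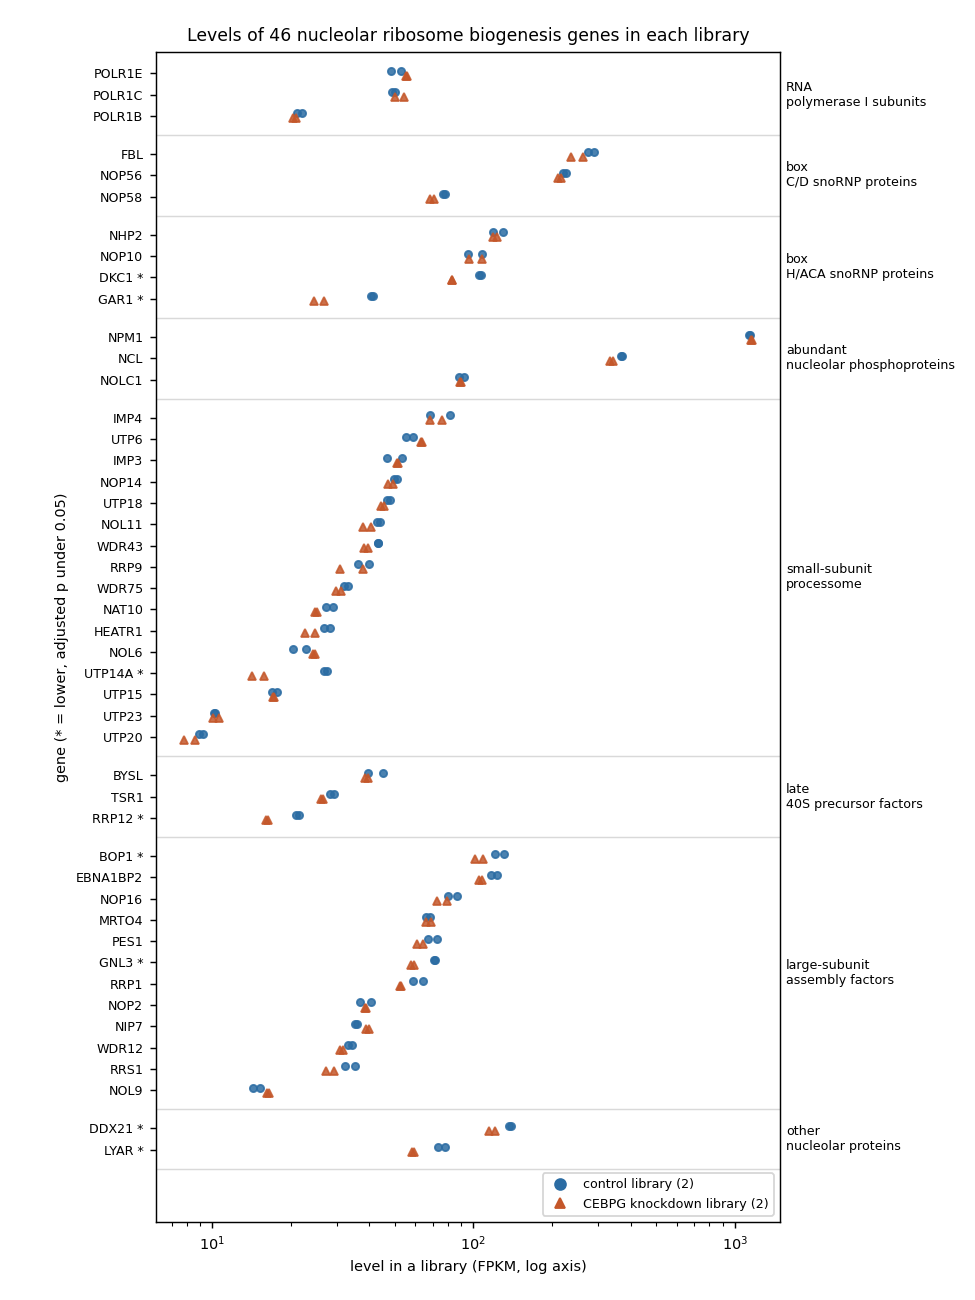
Level in each library of the 46 genes, in FPKM on a log axis, ordered by role and by mean level (circles, 2 control libraries; triangles, 2 CEBPG knockdown libraries; asterisks, genes with an adjusted p under 0.05). The levels span 8.65 FPKM (UTP20) to 1148 FPKM (NPM1) as means over the 4 libraries, and most pairs of groups lie close together.

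Means over the 4 libraries ran from 8.65 FPKM for UTP20 to 1148 FPKM for NPM1 with a median of 49.95 FPKM, and 45 of the 46 genes were over 10 FPKM in every library. The replicates were close. The median SD within groups was 0.045 on the log2 scale for the members and 0.071 for all tested genes. Across the 46 genes, which share libraries and are not independent, Spearman's rho between level and log2 fold change was -0.05.

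The promoters of the 3 largest changes that had an entry in RefSeq (GRCh38.p14) are shown because UTP14A and GAR1 moved most and LYAR is the next with an entry. RRP12 has none in that table. Up to 250 bases before the RefSeq start were taken, and the bases that GENCODE counts as part of the gene were left off. Capitals mark letters that match a searched motif on either strand.
UTP14A, chrX:129905914-129906120, + strand: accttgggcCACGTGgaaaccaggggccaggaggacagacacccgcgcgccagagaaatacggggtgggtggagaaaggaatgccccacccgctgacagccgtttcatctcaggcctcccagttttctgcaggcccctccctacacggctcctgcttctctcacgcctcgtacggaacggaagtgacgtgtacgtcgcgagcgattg
GAR1, chr4:109815260-109815509, + strand: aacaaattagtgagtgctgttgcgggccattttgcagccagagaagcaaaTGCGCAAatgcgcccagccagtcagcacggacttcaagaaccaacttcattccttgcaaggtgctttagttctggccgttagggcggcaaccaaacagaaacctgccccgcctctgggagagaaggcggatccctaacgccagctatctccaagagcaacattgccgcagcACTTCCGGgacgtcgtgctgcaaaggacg
LYAR, chr4:4290155-4290404, - strand: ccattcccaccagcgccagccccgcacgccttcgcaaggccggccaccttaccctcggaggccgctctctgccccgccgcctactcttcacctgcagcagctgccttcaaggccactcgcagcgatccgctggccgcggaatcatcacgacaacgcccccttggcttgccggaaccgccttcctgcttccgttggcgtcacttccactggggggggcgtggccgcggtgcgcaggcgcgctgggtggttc

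In UTP14A the capitals mark an E-box, CACGTG, the letters bound by MYC with its partner MAX, 241 bases before the RefSeq start. The 43 bases next to that start lie within the GENCODE gene and are not shown. In GAR1 they mark the ETS core CCGGAAGT, on the reverse strand 29 bases before the start, and TTGCGCA, on the reverse strand 200 bases before it. TTGCGCA is the CEBP palindrome TTGCGCAA without its last letter, so every full palindrome also holds it, and it was added to the search after these sequences had been read. LYAR held none of the searched motifs in the window shown. GAR1 and LYAR each have 2 starts listed, of which the most upstream is shown.

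The search covered 47 windows of 250 bases for 39 of the 46 genes. The E-box was in 9 windows (19.1%), against 6.34% of all 35116 promoter windows and 8.57% of the 12175 windows of tested genes. Among the 6 called members with a window, DDX21, LYAR (in its other start) and UTP14A had one. The full CEBP palindrome TTGCGCAA was in 0 of 47 windows and in 0.131% of all windows. The C/EBP-ATF response element core TGATGCAA was also in 0 of 47, and in 0.772% of all windows. TTGCGCA was in 4 windows (8.51%), those of DKC1, GAR1, NAT10 and NPM1, against 1.62% of all windows and 2.64% of the windows of tested genes. CCAAT was in 17 windows (36.2%, against 32.0% of all) and the ETS core in 6 (12.8%, against 3.42% of all and 7.10% of the windows of tested genes). These matches are of letters only, and binding was not measured.

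The small-subunit processome, the large particle that forms on the precursor rRNA while it is being transcribed, was represented by 16 genes. UTP14A (X:129906121-129929761, + strand, in GENCODE release 44 on GRCh38) activates the helicase DHX37 within it. UTP14A was at 27.4 and 26.9 FPKM in control and at 15.8 and 14.2 FPKM in knockdown libraries. Both knockdown libraries were far below both control libraries relative to the gap within either group. The log2 fold change was -0.82 (SE 0.070, 95% interval -0.98 to -0.65, limma adjusted p = 0.0013), and leaving out each library in turn gave -0.89 to -0.75. UTP14A had 1 transcript in the table. UTP14C, a retrotransposed copy that could share reads with it, was at 6.23 and 6.56 FPKM in control and at 4.84 and 5.79 FPKM in knockdown libraries, with a log2 fold change of -0.23 (limma adjusted p = 0.125).

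The other 15 processome genes were not called, so 1 of the 16 (6.25%) was called lower, against 9.99% of all tested genes. In 9 of the 16, the highest knockdown library was under the lowest control library, and in 2 (UTP6 and NOL6) the order was the opposite, against 30.5% and 34.3% of all tested genes. HEATR1, which links the processome to transcription of the rRNA genes, was at 26.8 and 28.3 FPKM in control and at 22.6 and 24.8 FPKM in knockdown libraries. Its log2 fold change was -0.21 (limma adjusted p = 0.0728), and it was called with the replicate block (limma adjusted p = 0.0233). NAT10, the acetyltransferase of the 18S rRNA, had a log2 fold change of -0.17 (limma adjusted p = 0.0994) and was called under either scaling. IMP4, the most abundant gene of the role, was at 81.2 and 68.0 FPKM in control and at 75.5 and 68.4 FPKM in knockdown libraries, and the groups overlapped. NOL6 had the highest log2 fold change of all members, 0.17 (limma adjusted p = 0.127), with 22.9 and 20.5 FPKM in control and 24.4 and 24.8 FPKM in knockdown libraries. UTP6 followed at 0.15 (limma adjusted p = 0.112), with 58.5 and 55.4 FPKM against 63.2 and 63.3 FPKM. The median over the 16 genes was -0.08.

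The box H/ACA snoRNPs, which convert uridine in rRNA to pseudouridine, have 4 core proteins, and these divided into a pair that fell and a pair that was not called. GAR1 (4:109815510-109824740, + strand), which binds the catalytic subunit, was at 41.2 and 40.5 FPKM in control and at 26.9 and 24.5 FPKM in knockdown libraries. The groups were widely apart, with a log2 fold change of -0.65 (SE 0.066, limma adjusted p = 0.00208) and -0.71 to -0.58 with each library left out. DKC1 (X:154762742-154777689, + strand), the pseudouridine synthase itself, was at 107 and 105 FPKM in control and at 82.5 and 82.9 FPKM in knockdown libraries. Its change was smaller, -0.35 (SE 0.054, limma adjusted p = 0.00713), with little spread in either group. The main transcript of DKC1, NM_001363, went from 94.2 and 86.7 FPKM to 69.8 and 70.6 FPKM. With this transcript in place of the gene sum DKC1 was not called (limma adjusted p = 0.0516), nor was it without either knockdown library (0.0717 and 0.0648). NHP2, which binds the guide RNA, was at 129 and 119 FPKM in control and at 123 and 118 FPKM in knockdown libraries, and NOP10, which supports the synthase, was at 107 and 95.4 FPKM and at 107 and 96.2 FPKM. For both, the groups overlapped, and their log2 fold changes were -0.04 and 0.01 (limma adjusted p = 0.702 and 0.967).

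The box C/D snoRNPs, which methylate rRNA, gave 0 calls among 3 genes, against 20.9% of all tested genes called in either direction. The knockdown libraries were under the control libraries for each of the 3, as for 30.5% of all tested genes. FBL, the methyltransferase, was at 289 and 274 FPKM in control and at 262 and 237 FPKM in knockdown libraries, a log2 fold change of -0.18 (limma adjusted p = 0.115). NOP58 had a log2 fold change of -0.15 (limma adjusted p = 0.0958) and NOP56 one of -0.06 (limma adjusted p = 0.473). FBL was called with the replicate number as a block and with columns scaled to one sum (limma adjusted p = 0.00674 and 0.0164), and NOP58 with the block (0.0376). NOP56 and NOP58 are the scaffold proteins that hold the methyltransferase on its guide RNA.

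The abundant nucleolar phosphoproteins gave 0 calls among 3 genes, against 20.9% of all tested genes called in either direction. NPM1, a histone chaperone, was at 1147 and 1131 FPKM in control and at 1160 and 1154 FPKM in knockdown libraries, and ranked 31 among all genes by mean level. Its log2 fold change was 0.02 (95% interval -0.12 to 0.17, limma adjusted p = 0.819). NCL, nucleolin, was at 367 and 371 FPKM in control and at 343 and 332 FPKM in knockdown libraries (log2 fold change -0.13, limma adjusted p = 0.15). It was called with the replicate block (0.0241) and with columns scaled to one sum (0.037). NOLC1, which chaperones snoRNPs, was at 91.6 and 88.2 FPKM and at 89.0 and 89.8 FPKM (log2 fold change -0.01, limma adjusted p = 0.933).

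Among 3 late 40S precursor factors, RRP12 (33.3%) was called lower, against 9.99% of all tested genes. RRP12 (10:97356358-97426076, - strand), a nuclear export factor of pre-ribosomes, was at 21.6 and 20.9 FPKM in control and at 16.3 and 16.1 FPKM in knockdown libraries. The groups did not overlap, and the log2 fold change was -0.37 (SE 0.060, limma adjusted p = 0.00907). BYSL and TSR1, which act on the pre-40S particle, had log2 fold changes of -0.11 and -0.12 (limma adjusted p = 0.32 and 0.18).

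Of 12 large-subunit assembly factors, GNL3 and BOP1 (16.7%) were called lower, against 9.99% of all tested genes. GNL3 (3:52681156-52694497, + strand), the GTPase nucleostemin, was at 71.0 and 70.6 FPKM in control and at 57.5 and 59.4 FPKM in knockdown libraries. The log2 fold change was -0.27 (SE 0.055, limma adjusted p = 0.0179), and with its top transcript in place of the gene sum it was not called (limma adjusted p = 0.104). BOP1, a scaffold that works with PES1 and WDR12, was at 131 and 121 FPKM in control and at 109 and 102 FPKM in knockdown libraries. Its log2 fold change was -0.26 (SE 0.067, limma adjusted p = 0.0371), and it was called in 6 of 12 alternative settings. PES1 and WDR12 were not called, at -0.16 and -0.10. RRS1, which helps to build in the 5S particle, was just outside the threshold, at 35.2 and 32.2 FPKM in control and at 27.2 and 29.4 FPKM in knockdown libraries (log2 fold change -0.24, limma adjusted p = 0.0535). RRP1, at 64.1 and 58.6 FPKM and at 52.3 and 52.8 FPKM, was also just outside (log2 fold change -0.22, limma adjusted p = 0.0546). RRS1 and RRP1 were each called in 5 of 12 alternative settings. NIP7 and NOL9, a polynucleotide kinase of rRNA processing, were among the 5 highest members, at 0.14 and 0.13, and neither was called.

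The remaining members with a call were LYAR and DDX21. LYAR (4:4267701-4290154, - strand), a zinc finger protein that acts in rRNA processing, was at 78.0 and 73.2 FPKM in control and at 58.0 and 59.3 FPKM in knockdown libraries. The log2 fold change was -0.36 (SE 0.060, limma adjusted p = 0.00938). DDX21 (10:68956135-68985068, + strand), an RNA helicase of the nucleolus, was at 137 and 139 FPKM in control and at 114 and 120 FPKM in knockdown libraries. Its log2 fold change was -0.23 (SE 0.057, limma adjusted p = 0.0321), the smallest of the 8, and it was called in 6 of 12 alternative settings. Of the 8 genes, RRP12, LYAR, DKC1, GNL3, BOP1 and DDX21 lost the call when either knockdown library was left out. BOP1 also lost it without control library 1, and DDX21 without control library 2.

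**Figure D2:**
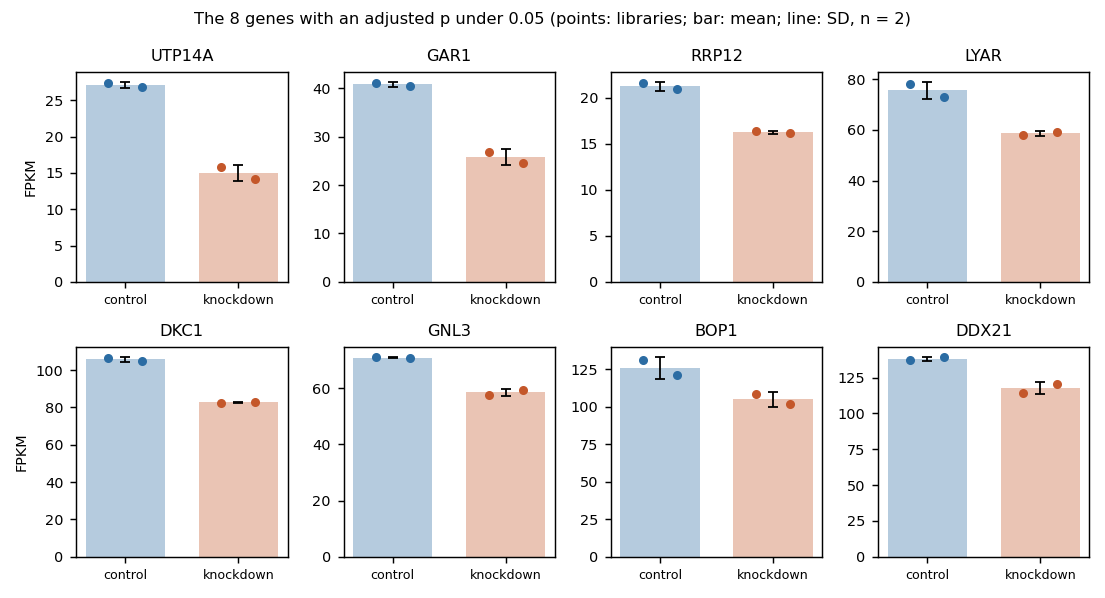
FPKM in each library of the 8 genes with an adjusted p under 0.05, one panel per gene with its own axis from 0 (points, libraries; bars, group means; lines, SD, n = 2). In each panel the knockdown points lie under the control points, most widely apart for UTP14A and GAR1.

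The RNA polymerase I subunits gave 0 calls among 3 genes, against 20.9% of all tested genes called in either direction. Of the 3, 2 had a log2 fold change above 0. POLR1C, which is shared with RNA polymerase III, was at 49.9 and 48.7 FPKM in control and at 54.2 and 50.02 FPKM in knockdown libraries. POLR1E, the most abundant of the 3 and one of the 5 highest members, was at 52.9 and 48.5 FPKM and at 55.8 and 55.1 FPKM. Their log2 fold changes were 0.08 and 0.13, and POLR1B, a subunit of the catalytic core, had one of -0.06. None was called (limma adjusted p = 0.416, 0.197 and 0.523).

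**Figure D3:**
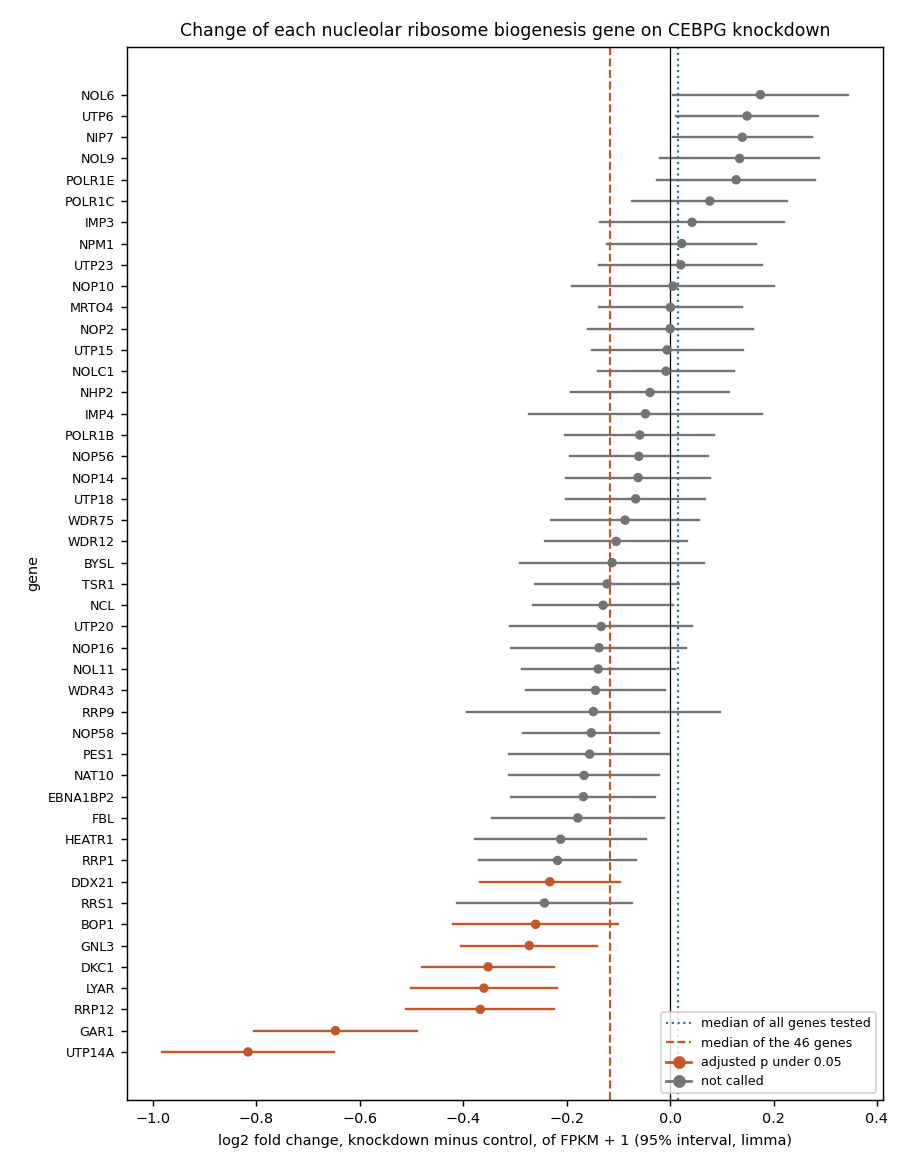
Log2 fold change of each of the 46 genes, knockdown minus control on the log2(FPKM + 1) scale, with its 95% interval from limma, in order of size (coloured, adjusted p under 0.05). UTP14A and GAR1 stand apart at -0.82 and -0.65, and 34 of the 46 points lie below 0.

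For the 38 genes not called, the 95% intervals reached down to -0.41 and up to 0.34 over all of them. A total of 16 members changed by under 0.1 on the log2 scale in either direction. Of the 8 called genes, 6 changed by less than 0.5, and all 8 were lower in all 12 alternative settings.

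Summed over the 46 genes, levels were 4391 and 4234 FPKM in the control libraries, which was 1.197% and 1.223% of all FPKM. In the knockdown libraries the sums were 4106 and 4020 FPKM, or 1.118% and 1.127%. The knockdown mean was 94.2% of control (4063 ± 60.8 against 4313 ± 111 FPKM, SD, n = 2 each), and the exact permutation test gave p = 0.3333, which is the smallest that 2 against 2 libraries allow. NPM1 and NCL make up a large share of the sum, and without them the knockdown mean was 91.6% of control. By role, the summed level in the knockdown was lowest for LYAR with DDX21 (82.4% of control), the late 40S factors (88.4%), the H/ACA proteins (88.9%) and the large-subunit factors (90.3%). It was 91.5% for the C/D proteins, 94.8% for the processome, 99.1% for the phosphoproteins and 105% for the RNA polymerase I subunits.

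In the table, 27 members had 1 transcript and 19 had 2 or more. For some of them the gene sum hid transcripts that moved apart. NOP14, a processome protein with a gene-level change of -0.06, had 1 transcript (NM_001291978) at 45.5 and 41.9 FPKM in control and at 36.3 and 34.1 FPKM in knockdown libraries. Its other transcript (NM_003703) was at 5.67 and 7.66 FPKM in control and at 13.1 and 13.0 FPKM in knockdown libraries. GNL3 had a minor transcript (NM_206825) at 5.32 and 7.12 FPKM in control, and at 3.43 and 15.05 FPKM in knockdown libraries 1 and 2, so its knockdown libraries differed from each other in how reads were divided. NOP2, an rRNA methyltransferase with no change at the gene level, had a transcript (NM_006170) at 12.3 and 6.87 FPKM in control, listed at 0 in knockdown library 1 and at 9.78 FPKM in knockdown library 2. These transcripts were not tested, and they were chosen after their values were seen.

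Other genes of the same pathway were read from the same test, by lists of 104 further genes for RNA polymerase I, snoRNP assembly and the assembly of both subunits. Of these, 24 were called lower and 3 higher, 79 had a log2 fold change below 0, and the median was -0.10. These calls are 23.1% lower and 2.88% higher, beside 9.99% and 10.9% of all tested genes, of which 47.3% were below 0. The large-subunit list, with 49 of the 104 genes, had 13 lower (26.5%) and 1 higher (2.04%). PELP1, a subunit of the rixosome complex that also acts as a nuclear receptor coregulator, was at 21.8 and 19.6 FPKM in control and at 9.88 and 9.44 FPKM in knockdown libraries (log2 fold change -1.02, SE 0.075, limma adjusted p = 0.0009). MAK16, an early factor of the pre-60S particle, had a log2 fold change of -0.64, NOL12 one of -0.51 and NOC3L one of -0.45. NOC2L, RSL1D1, DDX27, DDX31, NOL8, NIFK, PAK1IP1, LSG1 and BRIX1 were also lower, and DDX51 was higher. Calls in this list, as over all tested genes, were fewer with either knockdown library left out. PELP1, MAK16 and RSL1D1 were called with each library left out. DDX51 was called in 0 of these 4 fits, and DDX31, LSG1 and BRIX1 in 1 of 4.

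In the list of other small-subunit processome genes, 5 of 31 (16.1%) were lower, against 9.99% of all tested genes. They were WDR3 at -0.46, WDR46 at -0.39, DDX10 at -0.33, DDX47 and MPHOSPH10. NOC4L was higher, 3.23% of the list against 10.9% of all tested genes. WDR3 was called with each library left out. With either knockdown library left out, calls were fewer in this list, as over all tested genes. Of 12 other RNA polymerase I genes, 4 (33.3%) were lower, against 9.99% of all tested genes. These were TAF1D at -0.42, CD3EAP at -0.39, POLR1D at -0.30 and POLR1A, the largest subunit, at -0.27. TAF1C was higher at 0.25 (8.33% of the list, against 10.9% of all tested genes), a call lost with any 1 library left out. Without either knockdown library or without control library 1, calls were fewer in this list, as over all tested genes. Of 12 snoRNP assembly genes, COIL, the scaffold of Cajal bodies, was at 20.9 and 20.6 FPKM in control and at 12.3 and 13.6 FPKM in knockdown libraries (log2 fold change -0.64, SE 0.070, limma adjusted p = 0.00259). RPAP3, a chaperone cofactor, was lower at -0.36 and lost the call without either knockdown library or without control library 2. COIL and RPAP3 make 16.7% of the snoRNP assembly list, against 9.99% of all tested genes called lower.

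In the reported test, shares of calls in the exosome and cytoplasmic lists were near those of all tested genes. In each direction they were 8.0% for the exosome list and 13.3% for the cytoplasmic list, against 9.99% lower and 10.9% higher. Of 25 exosome and RNase MRP genes, MTREX and POP1 were lower while POP5 and RPP25L were higher, each at 0.47, and the median was 0.00. POP5 and RPP25L were called with each library left out, while MTREX and POP1 lost the call without either knockdown library or without control library 1. Scaling the libraries by median ratio or to one sum gave 5 lower and 2 higher of the 25. In those fits 12.6% and 13.0% of all tested genes were called lower. Of 15 cytoplasmic maturation genes, LTV1 (-0.50) and RIOK1 (-0.34) were lower, and BUD23 (0.52), a methyltransferase of the 18S rRNA, and NOB1 (0.30), the nuclease that makes its 3′ end, were higher. LTV1 and BUD23 were called with each library left out, while RIOK1 and NOB1 lost the call without either knockdown library. Of 79 cytosolic ribosomal protein genes, 8 were lower (10.1%, near the 9.99% of all tested genes) and 3 higher (3.80%, against 10.9%). The median was 0.04, and -0.014 without control library 2, with changes from -0.65 for RPL21 to 0.35 for RPS21 among those called. With columns scaled to one sum this split was 14 lower and 12 higher, and with median-ratio scaling it was 9 and 6. Over all tested genes, 13.0% and 12.6% were called lower in these fits. Ribosomal protein calls were fewer with either knockdown library left out, as were those over all tested genes. Reads of ribosomal protein genes can be shared with their many processed pseudogenes, so these values are uncertain.

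MYC, which binds the E-box with MAX, was at 178 and 162 FPKM in control and at 139 and 133 FPKM in knockdown libraries, 80.3% of control (log2 fold change -0.31, SE 0.067, limma adjusted p = 0.0209). It lost the call without either knockdown library. MAX was at 37.4 and 34.7 FPKM in control and at 35.6 and 35.5 FPKM in knockdown libraries (log2 fold change -0.02, limma adjusted p = 0.845). Of 11 genes of the MYC network, 2 were lower (18.2%, against 9.99% of all tested genes) and 1 higher, 6 had a log2 fold change below 0, and the median was -0.01. MYCL, at a low level, was lower at -0.40, and MXD1, a partner of MAX that opposes MYC, was higher at 0.45. MXD1 was called with each library left out, and MYCL lost the call without either knockdown library or without control library 1. Of 20 proliferation genes, 8 were lower, with MCM6 at -0.43 and MKI67 at -0.40, and 2 were higher, RRM2 at 0.61 and TYMS at 0.30. Of all tested genes, 9.99% were called lower and 10.9% higher. The median was -0.12, and it was -0.062 without control library 1 and -0.21 without control library 2. Proliferation calls were fewer with either knockdown library left out, as were those over all tested genes. A difference in the growth state of the cells, or in the amount of RNA per cell, cannot be told apart from a change in a gene's own transcripts in these bulk libraries. The part of MYC and of proliferation in the change of the 46 genes was not tested.

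**Figure D4:**
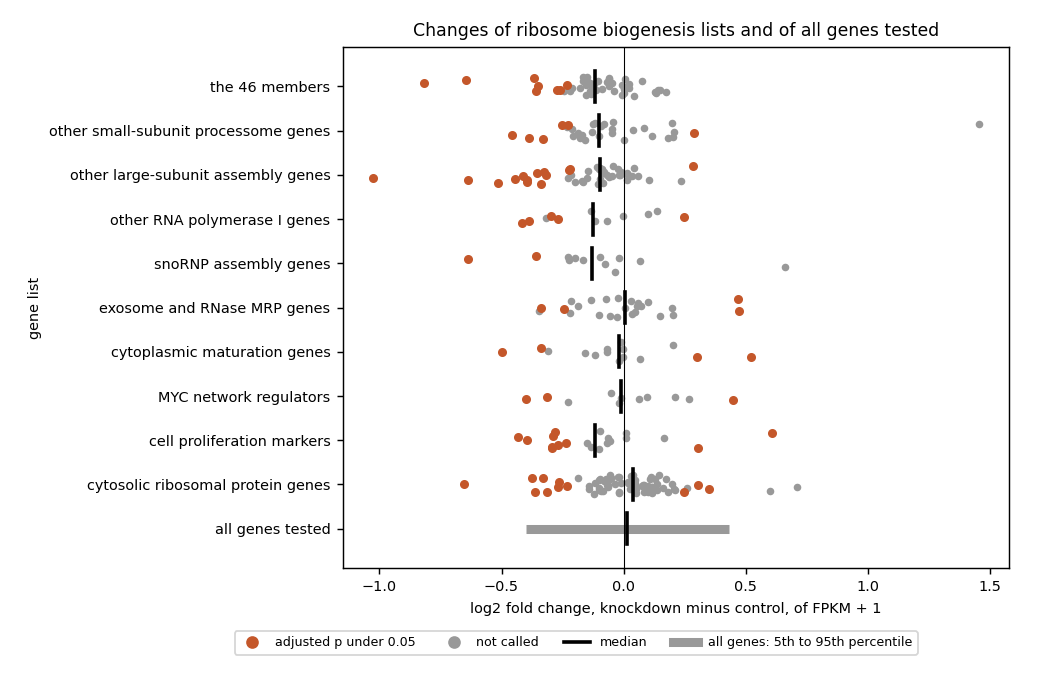
Log2 fold change, knockdown minus control of log2(FPKM + 1), of each gene in the 46 members and in 9 related lists (coloured, adjusted p under 0.05; black bars, list medians; grey bar, the 5th to the 95th percentile of all tested genes). The medians of the members, of the 4 nucleolar lists and of the proliferation list lie near -0.1, and those of the exosome, cytoplasmic, MYC network and ribosomal protein lists lie between -0.02 and 0.04. The point at 1.45 is DDX52, which was listed at 0.00 FPKM or near it in 3 libraries and at 6.52 FPKM in knockdown library 1, and was not called.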

How the data were processed

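RNA was measured in 4 libraries (2 control, 2 CEBPG knockdown). Per the labels, total RNA was extracted with Trizol and libraries were made with a TruSeq kit. The submitters' processing notes name HISAT2 2.0.5 and hg38. The quantifier and the annotation release were not given in the sources used here. The authors deposited FPKM values for 29265 RefSeq transcripts, of which 183 held no value and 164 had no symbol (0.250% of FPKM, left out). Whole reads could not be recovered from low values, so read depth could not be known and counting intervals are left out. Division of reads between transcripts affects each value, and abundant transcripts shift the others.

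Transcripts were summed by symbol. Genes averaging 1 FPKM or more over the 4 libraries were fitted in limma 3.58.1 (R 4.3.3) as log2(FPKM + 1), with a mean trend, 2-sided tests, Benjamini-Hochberg adjustment over 10968 genes and no replicate block. On this scale, changes of low genes are understated. The script was tested on simulated data. The test of the study, DESeq2, needs counts and was not used. Nothing in the labels says that replicates came from separate cultures, so p-values measure the spread between these libraries. The members, gene lists, motifs and marker lists were chosen with earlier results of these data known. Any member could be named. By rule, values were for called members, the 5 highest and lowest log2 fold changes, the most abundant member of each role, MYC, MAX and up to 4 called genes of each pathway list. Values of other uncalled members (HEATR1, NAT10, NHP2, NOP58, NOLC1, RRS1, RRP1 and others) and transcripts were added after they were seen, and not all called list genes are named. Positions are from GENCODE release 44, and promoters from RefSeq on GRCh38.p14, where 7 members have no entry. Alternatives were a pseudocount of 0.1, no filter or a filter at 5 FPKM, the replicate block, 2 scalings, no trend, the top transcript per gene, and each library left out.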

Additional observations from a re-analysis of the deposited data

How the results depend on the processing

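All 8 called members were lower under all 12 alternatives. Of the members, 8 were called lower in the reported test, 16 with the replicate block, 15 with columns scaled to one sum, 12 with median-ratio scaling, 4 with the top transcript per gene, and 2 to 9 with 1 library left out. The share of all tested genes called lower moved too, from 9.99% to 14.8% with the block, 13.0% with one sum, 12.6% with median-ratio scaling and 2.66% with the top transcript. The correlation of the deviations of same-numbered libraries was 0.101 over 10968 genes. With 2 pairs the replicate numbers were not taken to pair the libraries, and an effect shared by same-numbered libraries was not tested. Members called with the block and not in the reported test were FBL, NOP58, NCL, HEATR1, PES1, RRP1, RRS1 and EBNA1BP2. With one sum they were FBL, NCL, NAT10, PES1, RRP1, RRS1 and EBNA1BP2, and with median-ratio scaling NAT10, RRP1, RRS1 and EBNA1BP2. The replicate block called 1622 of 10968 tested genes lower and 1818 higher. Calls in that fit, either way, covered 14 of 31 other small-subunit processome, 9 of 25 exosome and 40 of 79 ribosomal protein genes. Leaving out 1 library gave medians of -0.14 to -0.077 over the members, 415 to 948 genes called lower and 394 to 1215 higher. Without a filter on low values, 456 genes were called lower and 426 higher. The cause of these differences was not tested.

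For the related lists, calls with 1 library left out ranged from 1 to 5 (other small-subunit), 5 to 14 (other large-subunit), 0 to 4 (other RNA polymerase I), 1 to 2 (snoRNP assembly), 2 to 6 (exosome), 2 to 5 (cytoplasmic), 1 to 3 (MYC network), 2 to 10 (proliferation) and 1 to 11 (ribosomal protein). Their medians ranged, in that order, from -0.15 to -0.087, -0.12 to -0.082, -0.19 to -0.14, -0.16 to -0.084, -0.052 to 0.030, -0.066 to -0.026, -0.037 to 0.032, -0.21 to -0.062 and -0.014 to 0.052. Without a filter, calls were 2 (other small-subunit), 8 (other large-subunit), 1 each (other RNA polymerase I, snoRNP assembly, MYC network), 2 (exosome), 3 (proliferation) and 3 (ribosomal protein). Other small-subunit calls were 10 with the filter at 5 FPKM and 3 without a trend, and other RNA polymerase I calls were 2 without a trend. Exosome calls were 7 under either scaling, and ribosomal protein calls were 26 with one sum. All tested genes had 456 lower and 426 higher calls of 16504 without a filter. With the filter at 5 FPKM they had 1091 and 1119 of 7609, and without a trend 899 and 990 of 10968. Median-ratio scaling gave 1378 and 1315 of 10964, and one sum gave 1427 and 1249 of 10963. The median of the other RNA polymerase I genes was -0.14 with a pseudocount of 0.1 and with median-ratio scaling and -0.15 with one sum, which also gave -0.12 for other large-subunit and -0.039 for cytoplasmic genes. Without NPM1 and NCL the summed level was 91.6% of control.

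Members near 0 changed sign. NOP10, NOP2 and MRTO4 were at -0.0070, -0.012 and -0.012 with median-ratio scaling and at -0.016, -0.022 and -0.021 with one sum, and NHP2 was at 0.019 by its top transcript. With 1 library left out, log2 fold changes ranged from -0.098 to 0.021 (NHP2), -0.079 to 0.090 (NOP10), -0.035 to 0.019 (NOLC1), -0.034 to 0.023 (UTP15), -0.052 to 0.14 (IMP3), -0.17 to 0.079 (IMP4), -0.012 to 0.054 (UTP23), -0.070 to 0.070 (NOP2) and -0.030 to 0.032 (MRTO4).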
